A study of Homo sapiens with 6 samples.

Results

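The mitochondrial genome transcripts of T24 cells were followed through every row of a deposited gene count table whose name begins with MT-, that is, every row placed on the mitochondrial chromosome. These were 37 of the 56303 rows, made up of 13 protein genes, 2 rRNA genes and 22 tRNA genes, and all 37 passed the filter on low counts. T24 is an established human bladder cancer cell line. Cells were transfected for 48 h with a control siRNA (siNC, genotype label WT) or with siRNA against FBXL6 (siFBXL6, genotype label FBXL6 knockdown), and bulk RNA was sequenced from 3 libraries per group to ask what changes in the transcriptome when this F-box protein is depleted. All 6 libraries came from the same line and carried the same batch label. The study's methods name 2 siRNAs against FBXL6, and the labels do not say whether the numbers 1 to 3 in the titles mark different siRNAs or repeats; they are called replicates here. The methods mention independent replicates in general, without saying for these libraries whether the 3 of a group were separate cultures, so p-values measure only the spread between these libraries, which may be technical.

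The human mitochondrial genome is a small circle present in many copies per cell. Both of its strands are transcribed by the polymerase POLRMT into long precursors that span many genes, and tRNAs lying between the rRNA and protein genes are cut out to release the mature RNAs. The protein genes all encode core subunits of the respiratory chain and the ATP synthase, and the rRNAs and tRNAs serve the ribosome inside the organelle, so the level of each RNA depends on shared synthesis as well as on its own processing, polyadenylation and decay.

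The libraries held 58646515, 60967902 and 56814946 counts for siNC and 60968158, 60898556 and 60754015 counts for siFBXL6. Values per library are given in the order of replicates 1, 2 and 3, as counts per 1000000 counts (CPM) after scaling of the libraries by TMM, and every log2 fold change is siFBXL6 over siNC. FBXL6 itself, the gene targeted by the siRNA, was read at 6.19, 6.70 and 6.93 CPM in the siNC libraries and 6.58, 5.70 and 5.81 CPM in the libraries labelled siFBXL6. The highest siFBXL6 value lay above the lowest siNC value, so the groups overlapped, and the log2 fold change was -0.13 (SE 0.09, adjusted p = 0.247) with a 95% interval of -0.31 to 0.05. With 1 library left out the estimate ran from -0.20 without siFBXL6 replicate 1 (adjusted p = 0.112) to -0.09 without siFBXL6 replicate 2 (adjusted p = 0.521), and it passed in no case. Since the target mRNA did not pass the test, these counts alone do not show the depletion that the label names, nor do they exclude a modest one or one of the protein, and the treated samples are called the libraries labelled siFBXL6; each direction given here is a difference between the labelled groups. ACTB, the cytoskeletal actin often used as a reference, stood at 1157, 1151 and 1196 CPM in the siNC libraries and 1197, 1148 and 1160.2 CPM in those labelled siFBXL6, which overlapped.

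The epithelial identity of the line was checked with 12 markers, of which 10 passed the filter. They summed to 3938, 3807 and 3923 CPM in siNC and 3474, 3457 and 3468 CPM in the libraries labelled siFBXL6. KRT7, a keratin of simple and transitional epithelia, was the most abundant of them, while the uroplakins UPK1B and UPK3A, which mark mature urothelium, had at most 6 counts in any library. The uroplakin UPK2 passed the filter at means of 1.41 CPM in siNC and 1.19 CPM in the libraries labelled siFBXL6, and was not called. Of the 10, 6 were lower and 1 was higher (60.0% and 10.0%), where 19.8% and 20.5% of all genes tested were. The 6 were GATA3, KRT5, KRT8, KRT19, EPCAM and KRT7, with log2 fold changes from -0.53 for GATA3 to -0.08 for KRT7. The 1 higher was CDH1 (0.16). The 3 leukocyte markers summed to 7.18, 7.30 and 7.19 CPM in siNC and 20.0, 18.0 and 19.2 CPM in those labelled siFBXL6. Nearly all of that was the lysosomal glycoprotein gene CD68, the 1 marker of the list that was called, whereas the pan-leukocyte gene PTPRC lay below 1 CPM in each library and the T cell gene CD3E had at most 4 counts. The 3 endothelial markers summed to between 1.59 and 3.20 CPM per library, with PECAM1 higher in the libraries labelled siFBXL6. The 3 fibroblast markers summed to between 31.1 and 36.6 CPM, nearly all from COL1A1, which was lower, and DCN and LUM lay below 1 CPM. The part of these marker differences in the mitochondrial values was not tested.

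Mitochondrial RNA took a smaller share of the libraries labelled siFBXL6. Its 37 rows held 5.82%, 6.28% and 6.29% of all counts in the siNC libraries and 5.33%, 5.30% and 5.45% in those labelled siFBXL6. The groups did not overlap, with every siNC library above every library labelled siFBXL6, and siNC replicate 1 lay closest to the other group. The means were 6.13 ± 0.266% and 5.36 ± 0.0811% (SD, n = 3), a relative change of -12.6%. In bulk RNA, fewer cells of a kind, fewer mitochondrial genomes per cell and less RNA per genome cannot be told apart. A share of counts also cannot tell less mitochondrial RNA from more nuclear RNA, or from a difference in RNA capture by the kit. The same holds for values in CPM.

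The difference was present in each class of gene and was proportionally largest for the rRNAs. The 13 protein genes held 4.51%, 4.94% and 5.00% of counts in siNC and 4.27%, 4.26% and 4.36% in the libraries labelled siFBXL6, a relative change of the mean of -10.8%. For the 2 rRNAs the shares were 1.14%, 1.15% and 1.13% against 0.912%, 0.894% and 0.943%, a change of -19.7%. The 22 tRNA rows together held 0.173%, 0.181% and 0.162% against 0.150%, 0.144% and 0.146%, a change of -14.8%. In none of the 3 classes did the groups overlap, although siNC replicate 3 was the lowest control for the tRNAs and siNC replicate 1 the lowest for the protein genes. Within the mitochondrial counts, protein genes made up 78.6 ± 1.02% in siNC and 80.2 ± 0.207% in the libraries labelled siFBXL6 (SD, n = 3), and rRNAs 18.6 ± 0.838% and 17.1 ± 0.210%. The bars of counts by class set these shares side by side.

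**Figure D1:**
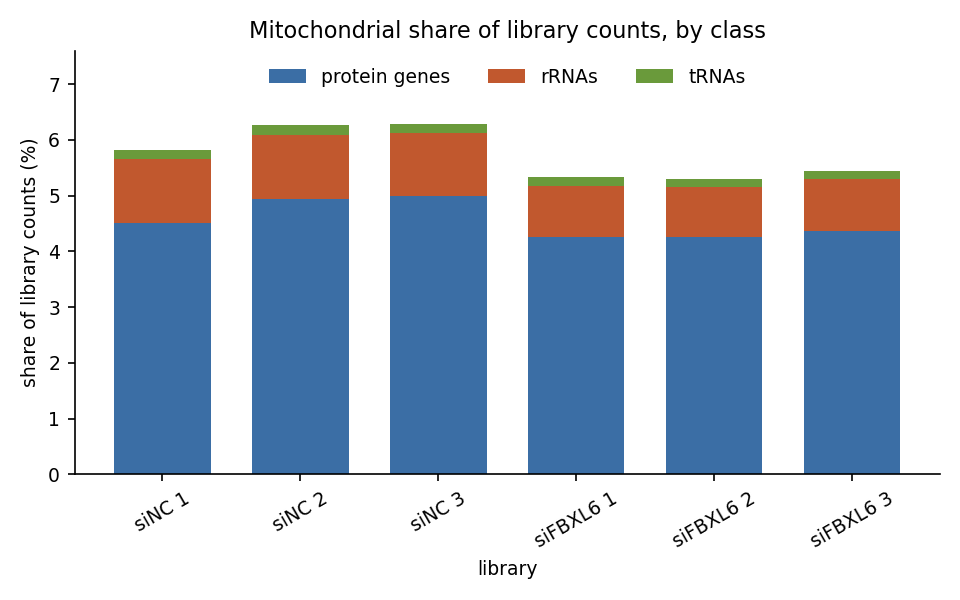
Share of all library counts on mitochondrial rows, in percent, for each of the 6 libraries; the stacked colours are the 13 protein genes, the 2 rRNAs and the 22 tRNAs. The siNC bars reach 5.82% to 6.29% and the bars labelled siFBXL6 reach 5.30% to 5.45%.

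Gene by gene, the mitochondrial rows lay mostly on the lower side. In edgeR's quasi-likelihood test, with p-values adjusted by the Benjamini-Hochberg method for 21298 genes, 26 of the 37 mitochondrial rows were lower at an adjusted p under 0.05 (70.3%), where 19.8% of all genes tested were lower. MT-TK was the 1 row called higher (2.70%), against 20.5% of all genes, and the remaining 10 did not pass. In all, 8569 genes (40.2%) were called, so a call was common in this comparison. The rows above 100 CPM on average, a level chosen after the values were seen, were called lower in 14 of 18 cases, against 30.4% of the 2053 genes at that level. In 23 of the 37 rows the groups did not overlap, with siFBXL6 lower each time, and the same pattern held for 23.9% of all genes tested. The median log2 fold change was -0.20 over the mitochondrial rows and -0.01 over all genes tested. The changes were small: the estimates ran from -0.66 to 0.21, and 35 of 37 were below 0. By class, 9 of 13 protein genes, 2 of 2 rRNAs and 15 of 22 tRNAs were called lower, with median log2 fold changes of -0.17, -0.34 and -0.22. The plot of change by gene order gives each estimate with its interval.

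**Figure D2:**
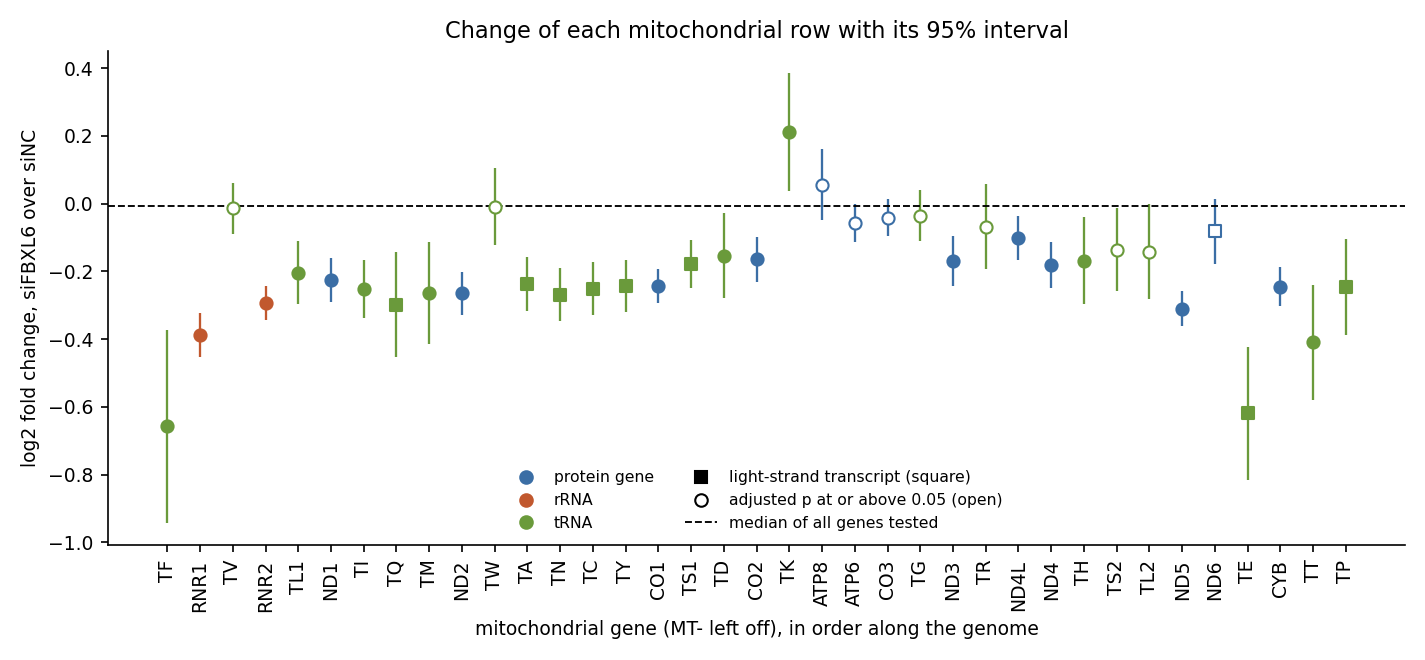
Log2 fold change, siFBXL6 over siNC, of each of the 37 mitochondrial rows in their order along the genome, with 95% intervals from edgeR (3 libraries per group); filled symbols have an adjusted p under 0.05, squares are transcripts of the light strand, and the dashed line is the median of all 21298 genes tested. The estimates run from -0.66 for MT-TF to 0.21 for MT-TK, and from MT-TK to MT-TG they lie between -0.06 and 0.21. MT-ATP6 and MT-CO3 in that stretch are also called lower with scaling by library size alone and without siNC replicate 1 (-0.09 and -0.08).

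The 2 rRNAs, the structural cores of the mitochondrial ribosome, were lower in every library labelled siFBXL6 than in any control. MT-RNR1, the small-subunit rRNA (648 to 1601 on the mitochondrial chromosome, GRCh38), was read at 89.8, 95.3 and 94.5 CPM in the siNC libraries and 72.2, 71.4 and 70.2 CPM in the libraries labelled siFBXL6. MT-RNR2, the large-subunit rRNA (1671 to 3229), was read at 11342, 11262 and 11101 CPM in the siNC libraries and 9123, 8944 and 9431 CPM in those labelled siFBXL6. For both genes the gap between the groups was wider than the range within either. MT-RNR1 fell by 23.6%, a log2 fold change of -0.39 (SE 0.03, adjusted p = 6.79e-12), and MT-RNR2 fell by 18.4%, a log2 fold change of -0.29 (SE 0.02, adjusted p = 4.08e-12). Per length, the level of MT-RNR2 in siNC was 7207 ± 78.8 CPM per kb (SD, n = 3) and that of MT-RNR1 97.7 ± 3.11 CPM per kb (SD, n = 3). Thus the rRNA share of counts came almost wholly from the large-subunit gene, and the count of MT-RNR1 relative to MT-RNR2 was 0.00792, 0.00847 and 0.00851 in siNC and 0.00791, 0.00798 and 0.00744 in the libraries labelled siFBXL6. The libraries were made with an mRNA kit, so these levels need not reflect the amounts of rRNA in the cells.

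Complex I (NADH dehydrogenase) receives 7 of its subunits from the mitochondrial genome, and 6 of their 7 mRNAs were called lower, against 19.8% of all genes tested and 30.4% of those above 100 CPM, as all 7 were. MT-ND5, a proton-pumping subunit of the membrane arm, was at 2499.8, 2573 and 2578 CPM in the siNC libraries and 2034, 2073 and 2066 CPM in the libraries labelled siFBXL6. The libraries of each group differed little from each other and the groups were far apart, with MT-ND5 falling the most among the protein genes at a log2 fold change of -0.31 (SE 0.03, adjusted p = 4.79e-12). MT-ND2, another membrane-arm subunit, was at 2402, 2579.7 and 2689.8 CPM in the siNC libraries and 2070.3, 2123 and 2194 CPM in those labelled siFBXL6, a log2 fold change of -0.26 (SE 0.03, adjusted p = 1.43e-08). MT-ND1, the subunit at the junction with the peripheral arm, was at 2830.5, 2982 and 3208 CPM in the siNC libraries and 2497, 2586 and 2629 CPM in those labelled siFBXL6, a log2 fold change of -0.23 (SE 0.03, adjusted p = 4.11e-07). For MT-ND1 and MT-ND2 the groups did not overlap, and siNC replicate 1 was the lowest control each time.

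MT-ND4, a further proton-pumping subunit, was read at 5552, 6145 and 6515 CPM in the siNC libraries and 5296, 5303 and 5469 CPM in the libraries labelled siFBXL6. The lowest control, siNC replicate 1, was above all 3 libraries labelled siFBXL6, and the log2 fold change was -0.18 (SE 0.03, adjusted p = 4.24e-05). MT-ND4L, which shares a bicistronic mRNA with MT-ND4, was read at 1868, 2057 and 2022 CPM in the siNC libraries and 1765, 1851 and 1928 CPM in those labelled siFBXL6. Here siNC replicate 1 lay below siFBXL6 replicate 3, so the groups overlapped, and the log2 fold change of -0.10 (SE 0.03, adjusted p = 0.0107) was closer to 0 than that of its partner, a difference that was not tested. The MT-ND4L call was lost without siNC replicate 2 (-0.07) and without siFBXL6 replicate 1 (-0.07). The reading frames of this pair overlap by 7 bases, shown in capitals with 15 bases on either side (MT:10745-10781, plus strand, GRCh38), because reads on the shared bases cannot be given to either gene alone.
MT-ND4L and MT-ND4: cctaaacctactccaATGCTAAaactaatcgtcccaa

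MT-ND3, a small membrane subunit, was at 370.2, 382 and 421 CPM in the siNC libraries and 359, 331 and 353 CPM in the libraries labelled siFBXL6. All 3 controls were above the other group, and the log2 fold change was -0.17 (SE 0.04, adjusted p = 2.58e-04). MT-ND6, the sole protein gene transcribed from the light-strand promoter, was at 304, 328 and 295 CPM in the siNC libraries and 283, 329.6 and 263 CPM in those labelled siFBXL6. Here siFBXL6 replicate 2 was the highest of the 6 libraries, the groups overlapped, and the log2 fold change of -0.08 (SE 0.05, adjusted p = 0.177) did not pass. The estimate passed without siFBXL6 replicate 2 (-0.18), with no filter on low counts (-0.08) and with a replicate block (-0.09). However, without siFBXL6 replicate 3 it was -0.0098 and without siNC replicate 2 it was -0.04, and neither passed. The library kit kept the strand of the RNA, but the strand setting used in counting is not given in the sources used here, so reads of MT-ND6 and of the opposite strand cannot be told apart.

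MT-CYB, the cytochrome b of complex III, was read at 829.6, 851 and 867 CPM in the siNC libraries and 738, 707 and 705 CPM in the libraries labelled siFBXL6. The groups stood apart, and MT-CYB fell by 15.6%, a log2 fold change of -0.25 (SE 0.03, adjusted p = 1.01e-08). The catalytic core of complex IV (cytochrome c oxidase) is encoded by 3 mitochondrial genes, of which 2 were called lower and 1 was not, against 19.8% of all genes tested called lower and 30.4% of those above 100 CPM, as all 3 were. MT-CO1, the subunit that holds the oxygen-reducing centre, was at 7786, 8113 and 8265 CPM in the siNC libraries and 6749, 6854 and 6814 CPM in those labelled siFBXL6, with no overlap and a log2 fold change of -0.24 (SE 0.02, adjusted p = 6.54e-10). MT-CO2, which receives electrons from cytochrome c, was at 2054, 2263 and 2319 CPM in the siNC libraries and 1901, 1986 and 2035 CPM in those labelled siFBXL6. Its lowest control, siNC replicate 1, was just above the highest library labelled siFBXL6, and the log2 fold change was -0.16 (SE 0.03, adjusted p = 1.08e-04). MT-CO3, the third core subunit and the mitochondrial mRNA with the highest level per length at 16751 ± 844 CPM per kb (SD, n = 3) in siNC, was at 12372, 13568 and 13459 CPM in the siNC libraries and 12826, 12508 and 12944 CPM in those labelled siFBXL6. All 3 libraries labelled siFBXL6 were above siNC replicate 1 and below the other controls, and the log2 fold change of -0.04 (SE 0.03, adjusted p = 0.239) did not pass. Its 95% interval ran from -0.10 to 0.01. Without siNC replicate 1 the estimate was -0.08 and passed, and with scaling by library size alone it was -0.06 and passed. It moved toward 0 without siNC replicate 2 (-0.02), siNC replicate 3 (-0.02) or siFBXL6 replicate 2 (-0.03).

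The ATP synthase (complex V) receives subunits a and 8 from MT-ATP6 and MT-ATP8, which are read from a single bicistronic mRNA that borders MT-CO3. Neither passed. MT-ATP6 was at 6248, 6829 and 6697 CPM in the siNC libraries and 6374, 6189 and 6444 CPM in the libraries labelled siFBXL6. The libraries labelled siFBXL6 lay below siNC replicates 2 and 3 and on either side of siNC replicate 1, and the log2 fold change was -0.06 (SE 0.03, adjusted p = 0.101) with a 95% interval of -0.11 to -0.00091. This estimate passed without siNC replicate 1 (-0.09), with upper-quartile scaling (-0.08), with scaling by library size alone (-0.08) and with no filter on low counts (-0.06), and it moved toward 0 without siNC replicate 2 (-0.03) or siFBXL6 replicate 2 (-0.04). MT-ATP8 was at 106, 123 and 125 CPM in the siNC libraries and 109, 122 and 136 CPM in those labelled siFBXL6. Its groups overlapped in part, with siNC replicate 1 the lowest and siFBXL6 replicate 3 the highest, and the log2 fold change was 0.06 (SE 0.05, adjusted p = 0.425). Without siFBXL6 replicate 1 MT-ATP8 was called higher (0.13), whereas without siNC replicate 1 (-0.02) or siFBXL6 replicate 3 (-0.03) the estimate was below 0; without siNC replicate 2 (0.09) or siNC replicate 3 (0.10) it was larger and did not pass. The 2 frames share 46 bases, in capitals here with 15 bases on either side (MT:8512-8587, plus strand, GRCh38), which is 22.2% of MT-ATP8, so the count of the shorter gene depends on how overlapping reads were assigned.
MT-ATP8 and MT-ATP6: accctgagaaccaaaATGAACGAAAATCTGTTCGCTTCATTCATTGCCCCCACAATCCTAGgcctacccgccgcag

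The makeup of the mitochondrial RNA was described within each library too, beside the plot of values by library. MT-CO3 made up 21.6 ± 0.361% of mitochondrial counts in siNC and 23.6 ± 0.241% in the libraries labelled siFBXL6 (SD, n = 3), and MT-RNR2 18.5 ± 0.837% and 17.0 ± 0.213%. Ratios of counts within a library do not depend on how libraries are scaled. The ratio of MT-ND5 to MT-CO3 was 0.202, 0.190 and 0.192 in siNC and 0.159, 0.166 and 0.160 in the libraries labelled siFBXL6. That of MT-CO1 to MT-CO3 was 0.629, 0.598 and 0.614 in siNC and 0.526, 0.548 and 0.526 in the libraries labelled siFBXL6. For MT-RNR2 over MT-CO3 it was 0.917, 0.830 and 0.825 in siNC and 0.711, 0.715 and 0.729 in the libraries labelled siFBXL6. Each of the 3 ratios was lower in every library labelled siFBXL6 than in every control. These ratios were chosen after the values were seen and were not tested.

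**Figure D3:**
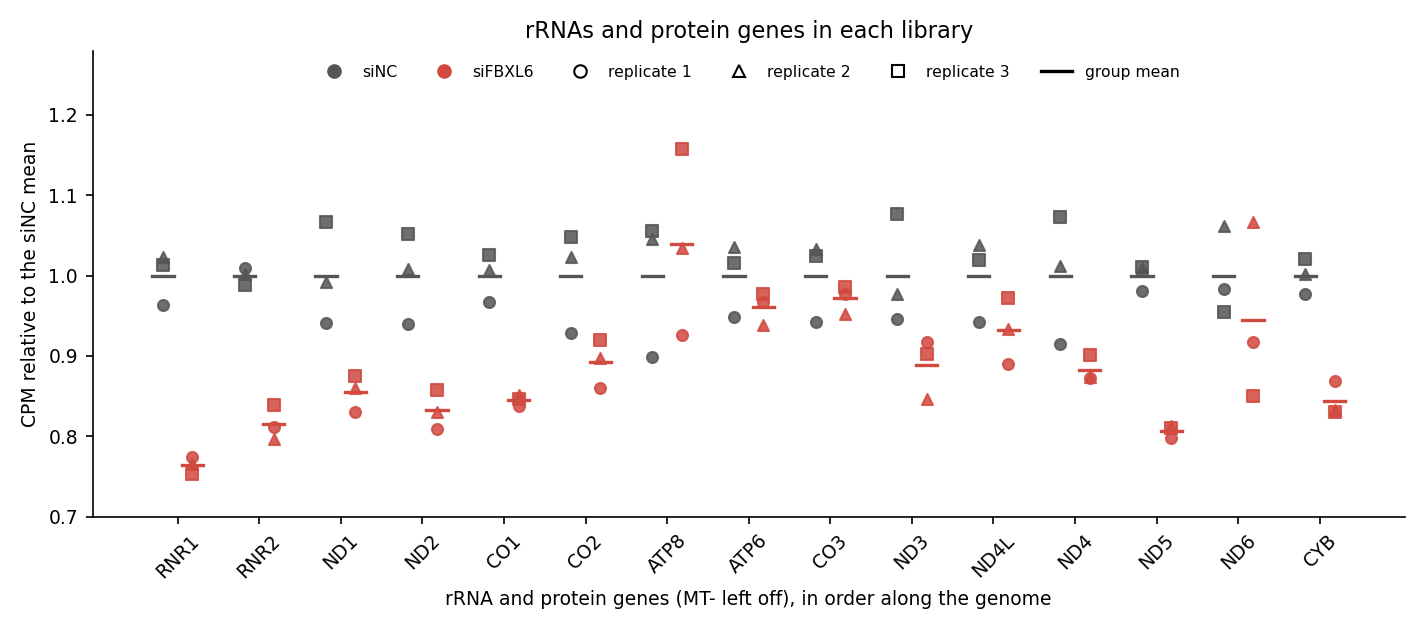
CPM of the 2 rRNAs and 13 protein genes in each of the 6 libraries, divided by the gene's siNC mean, in gene order; symbols mark the replicate and short lines the group means. The groups overlap for MT-ATP8, MT-ATP6, MT-CO3, MT-ND4L and MT-ND6 and are apart for the other genes.

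Levels per length, as counted on each row, spanned a wide range, as the plot of levels on a log axis shows. Their order did not follow position along the shared precursor. In siNC, MT-CO3 was followed by MT-ATP6 at 9679 ± 448 CPM per kb (SD, n = 3), MT-RNR2, MT-ND4L at 6674 ± 337 CPM per kb (SD, n = 3) and MT-CO1 at 5223 ± 159 CPM per kb (SD, n = 3) among the rRNAs and protein genes. The lowest protein genes were MT-CYB at 744 ± 16.5 CPM per kb (SD, n = 3), MT-ND6 at 588 ± 32.4 CPM per kb (SD, n = 3) and MT-ATP8 at 569.7 ± 49.9 CPM per kb (SD, n = 3). MT-ND6 and MT-ATP8 did not differ beyond their spread. MT-ATP6 and MT-ATP8 stood far apart although they share a bicistronic mRNA, so counts per length need not reflect amounts of RNA. What part the mRNA kit, short rows and the assignment of reads on shared bases had in this order was not tested. Across the 37 rows, Spearman's rho between the log2 fold change and the log2 mean CPM was 0.15, at 0.36 over the 22 tRNAs and 0 over the 15 other genes, and between the log2 fold change and GC content it was -0.23, at -0.36 and -0.22. These are descriptions across genes that share libraries and precursors.

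**Figure D4:**
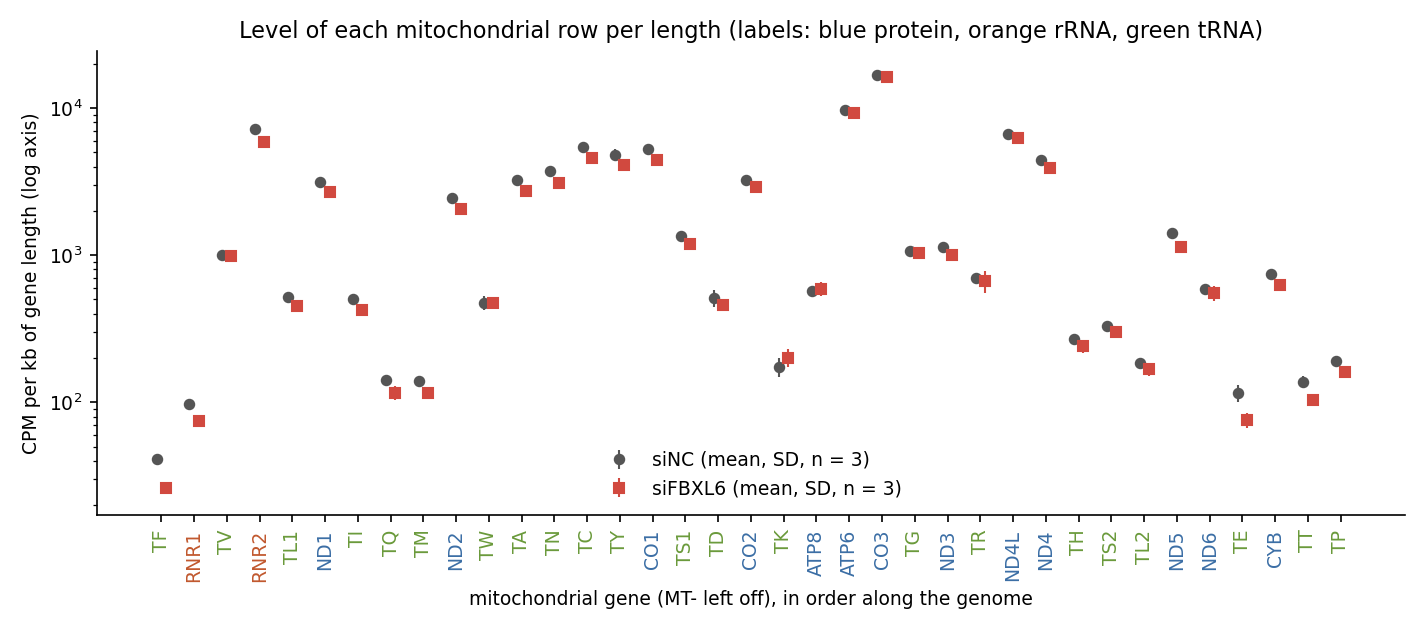
Mean level of each mitochondrial row, in CPM per kb of gene length on a log axis, with SD over 3 libraries per group, in gene order. MT-CO3 is the highest row in both groups and MT-TF the lowest.

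The tRNA rows together held far fewer counts than the other classes, at 0.172% of siNC counts against 4.82% for protein genes and 1.14% for rRNAs. Single rows overlapped with those classes: in siNC, MT-TC and MT-TY lay above MT-ND6, MT-ATP8 and MT-RNR1 in mean CPM. Counts of tRNA rows do not tell mature tRNAs from longer precursors. The study's methods describe an mRNA kit and enrichment of fragments longer than a tRNA, so these counts need not reflect amounts of mature tRNA. The largest estimates of all 37 rows were at tRNAs with few counts. MT-TF, the phenylalanine tRNA that opens the heavy-strand precursor ahead of MT-RNR1, was at 2.86, 3.19 and 2.70 CPM in the siNC libraries and 2.00, 1.69 and 1.86 CPM in the libraries labelled siFBXL6, from 102 to 197 counts per library. MT-TE, the glutamate tRNA beside MT-ND6, was at 7.34, 9.19 and 7.45 CPM in the siNC libraries and 4.58, 5.30 and 5.76 CPM in those labelled siFBXL6. MT-TT, the threonine tRNA after MT-CYB, was at 9.11, 8.29 and 9.87 CPM in the siNC libraries and 7.01, 7.33 and 6.17 CPM in those labelled siFBXL6. For each of the 3 the groups did not overlap. The log2 fold changes were -0.66 (SE 0.14, adjusted p = 2.41e-04) for MT-TF, -0.62 (SE 0.10, adjusted p = 2.52e-06) for MT-TE and -0.41 (SE 0.08, adjusted p = 1.37e-04) for MT-TT. MT-TK, the lysine tRNA between MT-CO2 and MT-ATP8, was at 10.5, 11.9 and 14.1 CPM in the siNC libraries and 12.1, 14.1 and 16.1 CPM in those labelled siFBXL6, with overlapping groups and a log2 fold change of 0.21 (SE 0.09, adjusted p = 0.0462). Its call was lost with DESeq2 (0.21), with upper-quartile scaling (0.19) and with scaling by library size alone (0.19). It was also lost without siNC replicate 1 (0.12), siNC replicate 2 (0.19), siFBXL6 replicate 2 (0.21) or siFBXL6 replicate 3 (0.11), and was kept at 0.33 without siNC replicate 3.

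The genes of these 4 tRNAs are printed since they held the largest decreases and the sole increase that was called; each is the strand of the tRNA from 5′ to 3′ in GRCh38, with the anticodon in capitals, placed where the known anticodon lies in the middle of a loop of 7 bases, after a T, with at least 4 of 5 flanking bases paired, G-T pairs included. MT-TF (MT:577-647), MT-TT (MT:15888-15953) and MT-TK (MT:8295-8364) lie on the plus strand and MT-TE (MT:14674-14742) on the minus strand. GC content was 40.9% for MT-TF, 39.1% for MT-TE, 37.9% for MT-TT and 32.9% for MT-TK.
MT-TF: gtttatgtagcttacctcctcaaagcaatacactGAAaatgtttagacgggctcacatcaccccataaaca
MT-TE: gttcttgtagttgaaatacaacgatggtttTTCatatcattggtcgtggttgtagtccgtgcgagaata
MT-TT: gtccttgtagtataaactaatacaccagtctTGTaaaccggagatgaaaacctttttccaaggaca
MT-TK: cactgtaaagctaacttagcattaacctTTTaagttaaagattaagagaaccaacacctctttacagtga

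The 4 neighbouring tRNAs between MT-ND2 and MT-CO1 that are read from the light strand were the most abundant tRNA rows. MT-TC, for cysteine, was at 370.3, 382 and 325 CPM in the siNC libraries and 309, 299 and 298 CPM in the libraries labelled siFBXL6. MT-TY, for tyrosine, was at 328, 339.7 and 289 CPM in the siNC libraries and 275, 266 and 267 CPM in those labelled siFBXL6. In both, siNC replicate 3 was the lowest control, yet above every library labelled siFBXL6. MT-TN, for asparagine, was at 282, 285 and 244 CPM in the siNC libraries and 229.7, 221 and 222 CPM in those labelled siFBXL6. MT-TA, for alanine, was at 233, 236 and 201 CPM in the siNC libraries and 193, 187 and 189 CPM in those labelled siFBXL6. The same replicate was lowest again, and the log2 fold changes were -0.25 (SE 0.04, adjusted p = 1.72e-06) for MT-TC, -0.24 (SE 0.04, adjusted p = 2.86e-06) for MT-TY, -0.27 (SE 0.04, adjusted p = 7.39e-07) for MT-TN and -0.24 (SE 0.04, adjusted p = 6.68e-06) for MT-TA. The other light-strand tRNAs were lower too: all 8 were called lower, against 7 of 14 on the heavy strand and 19.8% of all genes tested, and the difference between the strands was not tested. MT-TS1, a serine tRNA, was at 89.4, 92.4 and 96.0 CPM in the siNC libraries and 81.9, 78.0 and 85.6 CPM in those labelled siFBXL6 (-0.18). MT-TQ, for glutamine, was at 10.1, 10.3 and 10.4 CPM in the siNC libraries and 9.34, 7.62 and 8.06 CPM in those labelled siFBXL6 (-0.30). In both the groups were apart. MT-TP, the proline tRNA next to the control region, was at 12.4, 12.6 and 13.9 CPM in the siNC libraries and 11.6, 11.1 and 10.0 CPM in those labelled siFBXL6 (-0.25), and its call was lost without siFBXL6 replicate 3 (-0.19). As for MT-ND6, counts of light-strand tRNAs cannot be told apart from reads of the opposite strand.

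On the heavy strand, MT-TL1, the leucine tRNA that follows MT-RNR2, was at 37.3, 38.8 and 40.8 CPM in the siNC libraries and 32.1, 33.3 and 36.1 CPM in the libraries labelled siFBXL6 (-0.20, adjusted p = 3.98e-04). MT-TI, for isoleucine, was at 34.8, 34.8 and 35.0 CPM in the siNC libraries and 29.1, 29.8 and 28.9 CPM in those labelled siFBXL6 (-0.25, adjusted p = 7.66e-06). MT-TM, for methionine, was at 8.99, 9.52 and 9.84 CPM in the siNC libraries and 7.57, 8.16 and 7.88 CPM in those labelled siFBXL6 (-0.26, adjusted p = 0.00429). The groups were apart in all 3 of these tRNAs, which lie next to MT-ND1 or MT-ND2. MT-TD, for aspartate, was at 29.7, 36.7 and 38.0 CPM in the siNC libraries and 28.2, 32.9 and 32.8 CPM in those labelled siFBXL6 (-0.15, adjusted p = 0.0454). MT-TH, for histidine, was at 19.3, 19.6 and 17.2 CPM in the siNC libraries and 18.5, 16.4 and 15.2 CPM in those labelled siFBXL6 (-0.17, adjusted p = 0.0327). Both overlapped and both calls were lost with DESeq2 (-0.15 and -0.17). MT-TD was lost without siNC replicate 2 (-0.11), siNC replicate 3 (-0.09) or siFBXL6 replicate 1 (-0.08), and was kept at -0.26 without siNC replicate 1. MT-TH was lost without siNC replicate 1 (-0.15), siNC replicate 2 (-0.13), siFBXL6 replicate 2 (-0.16) or siFBXL6 replicate 3 (-0.10). The 6 tRNAs that did not pass, MT-TV, MT-TW, MT-TG, MT-TR, MT-TS2 and MT-TL2, had siNC means from 13.2 to 72.0 CPM and log2 fold changes from -0.14 to -0.01, and their groups overlapped. Of these, MT-TS2 passed as lower without siNC replicate 3 (-0.18), with upper-quartile scaling (-0.16) and with scaling by library size alone (-0.16). Without siFBXL6 replicate 1, MT-TS2 (-0.21), MT-TL2 (-0.23) and MT-TR (-0.22) passed as lower, whereas MT-TR was -0.0031 without siFBXL6 replicate 2 and 0.0058 without siFBXL6 replicate 3. Estimates also lay above 0 for MT-TV without siNC replicate 1 (0.0054) or siFBXL6 replicate 2 (0.01), for MT-TW without siNC replicate 2 (0.082), siFBXL6 replicate 1 (0.011) or siFBXL6 replicate 3 (0.023), and for MT-TG without siFBXL6 replicate 2 (0.013).

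Along the genome, the longest run of neighbours not called lower held 5 genes, MT-TK, MT-ATP8, MT-ATP6, MT-CO3 and MT-TG, with log2 fold changes from -0.06 to 0.21. Elsewhere such runs held at most 2 genes. This run was noticed in the data and was not tested. MT-ATP6 and MT-CO3 in it were called lower with scaling by library size alone and without siNC replicate 1 (-0.09 and -0.08). MT-ATP6 was also called lower with upper-quartile scaling, with no filter on low counts and with nuclear copies added. On either side of this run, MT-CO2 and MT-ND3 were both called lower. Across the 15 alternative settings tried, 22 of the 26 rows called lower kept that call in every setting: 8 protein genes, 2 rRNAs and 12 tRNAs. The 4 others were MT-ND4L, MT-TD, MT-TH and MT-TP.

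Some reads counted on nuclear rows cannot be told apart from mitochondrial RNA with certainty, because the nuclear genome holds near-identical copies of mitochondrial sequence. By name, 386 rows were copies of the rRNA or protein genes, of which 150 had a count and 26 passed the filter. They held 0.177%, 0.200% and 0.193% of counts in siNC and 0.163%, 0.165% and 0.175% in the libraries labelled siFBXL6, and 85.5% of these counts lay on 2 rows of a block on chromosome 1. MTATP6P1, a copy of MT-ATP6 (633696 to 634376) that differs from it at 10 of 681 aligned bases, was at 796, 877 and 829 CPM in the siNC libraries and 744, 701 and 783 CPM in the libraries labelled siFBXL6. MTND2P28, a copy of MT-ND2 (629640 to 630683) that differs at 17 of 1042 bases, was at 745, 829.8 and 829 CPM in the siNC libraries and 642, 692 and 710.0 CPM in those labelled siFBXL6. Both were lower with no overlap, at log2 fold changes of -0.17 (SE 0.03, adjusted p = 1.37e-04) and -0.23 (SE 0.04, adjusted p = 1.72e-06). MTCO1P12, a copy of MT-CO1 (631074 to 632616) that differs at 20 of 1542 bases, was at 168, 189.5 and 178 CPM in the siNC libraries and 188, 198 and 193 CPM in those labelled siFBXL6. It went the other way from MT-CO1, with overlapping groups and a log2 fold change of 0.11 (SE 0.03, adjusted p = 0.00883), and its call was lost without siNC replicate 1 (0.07) and without siFBXL6 replicate 2 (0.10). Of the 26 copies tested, 3 were lower and 4 higher (11.5% and 15.4%, against 19.8% and 20.5% of all genes tested), with a median log2 fold change of 0.12. How reads that match a gene and its copy were assigned is not given in the sources used here, so the counts of both are uncertain to that extent. When the counts of all copies were added to their mitochondrial genes, an alternative chosen after the data were seen, 27 rows were called lower, the 26 found before and MT-ATP6 (-0.07).

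The nuclear genes that copy, transcribe, process and protect the mitochondrial genome and its RNAs were called in both directions. Of 56 such genes, all of which passed the filter, 14 were lower and 9 higher. These were 25.0% and 16.1%, against 19.8% and 20.5% of all genes tested. These 23 genes (41.1%) set beside 40.2% of all genes tested give a share near the background, and their median log2 fold change was -0.0021. By group, 2 of 8 transcription genes, 1 of 9 replication and nucleoid genes, 5 of 11 RNA processing genes, 2 of 7 RNA stability genes, 3 of 14 RNA modification genes and 1 of 7 nuclear regulators were lower. In the same order 0, 4, 3, 1, 1 and 0 were higher.

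**Figure D5:**
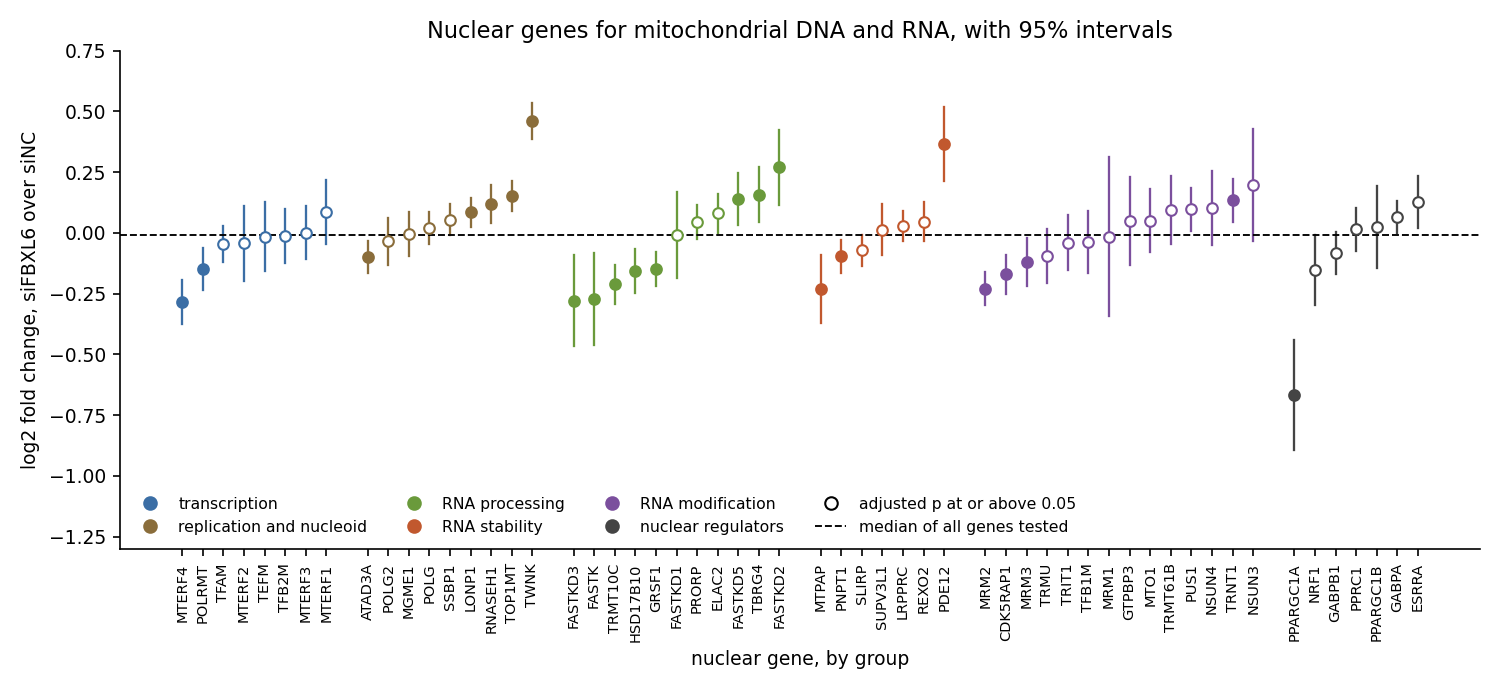
Log2 fold change, siFBXL6 over siNC, of 56 nuclear genes for mitochondrial DNA and RNA, grouped by role, with 95% intervals from edgeR (3 libraries per group); filled symbols have an adjusted p under 0.05. The estimates run from -0.67 for PPARGC1A to 0.46 for TWNK and lie on both sides of the dashed median of all genes tested in each group.

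POLRMT, the mitochondrial RNA polymerase, was at 38.7, 37.3 and 37.7 CPM in the siNC libraries and 35.9, 32.8 and 33.8 CPM in the libraries labelled siFBXL6. The groups did not overlap, with a log2 fold change of -0.15 (SE 0.04, adjusted p = 0.00454), and the call was lost without siFBXL6 replicate 2 (-0.12). TFAM, which packages the genome and opens its promoters, was at 56.6, 53.2 and 54.0 CPM in the siNC libraries and 52.7, 53.0 and 52.9 CPM in those labelled siFBXL6, a log2 fold change of -0.04 (SE 0.04, adjusted p = 0.351) that did not pass although its groups did not overlap; without siNC replicate 1 it was -0.02. The initiation factor TFB2M was at 22.9, 19.5 and 22.1 CPM in the siNC libraries and 21.6, 20.9 and 21.3 CPM in those labelled siFBXL6 (-0.01), with overlap, and its estimate lay above 0 without siNC replicate 1 (0.03), siNC replicate 3 (0.0066) or siFBXL6 replicate 2 (0.0006). The elongation factor TEFM was at 10.3, 10.1 and 9.68 CPM in the siNC libraries and 9.91, 9.40 and 10.4 CPM in those labelled siFBXL6 (-0.02), also with overlap, and its estimate lay above 0 without siNC replicate 1 (0.0023) or siFBXL6 replicate 2 (0.02). MTERF4, which takes part in assembling the mitochondrial ribosome, was at 52.3, 47.6 and 45.6 CPM in the siNC libraries and 38.4, 42.1 and 38.9 CPM in those labelled siFBXL6, apart between groups at a log2 fold change of -0.28 (SE 0.04, adjusted p = 3.19e-06).

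LRPPRC and SLIRP form the complex that stabilises mitochondrial mRNAs. LRPPRC was at 223, 211 and 216 CPM in the siNC libraries and 223, 217 and 222 CPM in the libraries labelled siFBXL6, overlapping, at a log2 fold change of 0.03 (SE 0.03, adjusted p = 0.521), which was 0.05 without siNC replicate 1 and 0.008 without siNC replicate 2. SLIRP was at 159, 154 and 161 CPM in the siNC libraries and 153, 148 and 151 CPM in those labelled siFBXL6. Its groups did not overlap, but the log2 fold change of -0.07 (SE 0.03, adjusted p = 0.0622) did not pass; it passed without siNC replicate 2 (-0.09), with upper-quartile scaling (-0.09) and with scaling by library size alone (-0.09). MTPAP, the mitochondrial poly(A) polymerase, was at 11.2, 11.7 and 12.8 CPM in the siNC libraries and 9.94, 10.1 and 10.3 CPM in those labelled siFBXL6. It was lower in each library labelled siFBXL6, at a log2 fold change of -0.23 (SE 0.07, adjusted p = 0.00663), a call that was lost without siNC replicate 3 (-0.18).

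The 5 smallest adjusted p-values of the machinery genes included MTERF4 and 4 others. TWNK, the replicative helicase (listed under its older symbol C10orf2), was at 46.0, 46.4 and 46.7 CPM in the siNC libraries and 63.7, 66.2 and 61.6 CPM in the libraries labelled siFBXL6. It was higher in each library labelled siFBXL6, at a log2 fold change of 0.46 (SE 0.04, adjusted p = 1.36e-12). MRM2, a methyltransferase of the large rRNA, was at 73.2, 74.9 and 71.4 CPM in the siNC libraries and 63.1, 61.1 and 63.1 CPM in those labelled siFBXL6, and TRMT10C, a subunit of the enzyme that cuts tRNA 5′ ends, at 58.1, 57.6 and 61.0 CPM in the siNC libraries and 47.5, 52.0 and 53.2 CPM in those labelled siFBXL6. Both were lower without overlap, at -0.23 (SE 0.03, adjusted p = 8.80e-07) and -0.21 (SE 0.04, adjusted p = 4.87e-05). PPARGC1A, the coactivator PGC-1alpha of nuclear genes for mitochondria, was at 4.24, 4.19 and 4.25 CPM in the siNC libraries and 2.58, 2.72 and 2.69 CPM in those labelled siFBXL6. It was low in all 6 libraries and fell by 37.0% on average, a log2 fold change of -0.67 (SE 0.11, adjusted p = 8.64e-06), with the groups far apart relative to their spread. The part of any of these genes in the mitochondrial values was not tested.

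Since the kit selects mRNA and most rRNA and tRNA lacks long poly(A) tails, nuclear RNAs without such tails were read as a comparison of library makeup. RN7SL1, the RNA of the signal recognition particle, was at 58.6, 56.8 and 51.4 CPM in the siNC libraries and 60.1, 54.6 and 56.5 CPM in the libraries labelled siFBXL6, overlapping, at a log2 fold change of 0.04 (SE 0.04, adjusted p = 0.519), with estimates below 0 without siNC replicate 3 (-0.02) or siFBXL6 replicate 1 (-0.0006). RN7SK, a regulator of transcription elongation, was at 63.1, 66.0 and 56.5 CPM in the siNC libraries and 78.5, 63.1 and 60.9 CPM in those labelled siFBXL6, with siFBXL6 replicate 1 the highest and overlap among the rest, at 0.13 (SE 0.06, adjusted p = 0.0818). It passed as higher with no filter on low counts (0.12) and without siNC replicate 1 (0.14), siNC replicate 2 (0.17), siFBXL6 replicate 2 (0.17) or siFBXL6 replicate 3 (0.20). Without siFBXL6 replicate 1, however, the estimate was 0.0029 (adjusted p = 0.973), so it rested on that library, and without siNC replicate 3 it was 0.06 and did not pass. RPPH1, the RNA of nuclear RNase P, was at 32.0, 33.6 and 33.3 CPM in the siNC libraries and 31.4, 29.2 and 30.6 CPM in those labelled siFBXL6, without overlap, at -0.12 (SE 0.04, adjusted p = 0.0303). That call was lost with DESeq2 (-0.12) and without siNC replicate 2 (-0.10), siNC replicate 3 (-0.11), siFBXL6 replicate 2 (-0.09) or siFBXL6 replicate 3 (-0.12). Of 8 such RNAs, 5 passed the filter, 1 was lower (20%, against 19.8% of all genes tested) and none was higher, with a median log2 fold change of 0.04. What part poly(A) selection had in the rRNA and tRNA values was not tested.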

How the data were processed

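Gene expression was measured by RNA-seq in 6 libraries of T24 cells, 3 siNC and 3 siFBXL6, as their titles label them. The authors deposited raw read counts per gene, from featureCounts (Subread v1.5.1) on GRCh38. The study's methods name Trimmomatic and HISAT2 for trimming and alignment, while the submitters' processing notes list fastp 0.23.0 and STAR, so those steps are uncertain. Neither source gives the annotation release, the strand setting, or how read pairs and reads matching several places were counted. In each library 71.1% to 72.4% of nuclear rows with 1 to 9 counts were even numbers, so counting error is larger than the totals of 56814946 to 60968158 counts would give if every count were a separate fragment. Positions of the 37 mitochondrial rows equal those of GENCODE v44 on GRCh38.

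Counts were filtered with filterByExpr (21298 of 56303 rows kept), scaled by TMM and tested with edgeR 4.0.16 (limma 3.58.1, R 4.3.3), siFBXL6 against siNC with condition as the only term and Benjamini-Hochberg adjustment over all genes tested; genes with an adjusted p under 0.05 were called. Shares of counts were described without a test. For 3 against 3 libraries, an exact permutation p that counts both directions cannot fall under 0.1. The alternatives were DESeq2 1.42.0, other scalings and filters, a replicate block, each library left out and, chosen after the data were seen, nuclear copies added to their mitochondrial genes. Named genes were the mitochondrial rows, with values for rRNAs, protein genes and called tRNAs, besides FBXL6, ACTB, 7 fixed machinery genes and the 5 with the smallest adjusted p, the 3 nuclear copies with the highest mean CPM, and RN7SL1, RN7SK and RPPH1. RMRP did not pass the filter. The members and lists were chosen with earlier results of these data known. List symbols missing from the table were matched through RefSeq synonyms. Libraries of a group differed beyond sampling noise.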

Additional observations from a re-analysis of the deposited data

How the results depend on the processing

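The count of mitochondrial rows called lower, 26, ran from 24 to 29 under other tools, scalings and filters and from 23 to 27 with 1 library left out. The count called higher, 1, was 0 with DESeq2, with upper-quartile scaling and with scaling by library size alone, and 0 to 2 with 1 library left out; the cause was not tested. Over the same settings 7451 to 8707 genes and 17 to 25 of the 56 machinery genes were called. The difference in mitochondrial share, -0.771 percentage points, was -0.925 to -0.691 with 1 library left out and -0.869 as a share of nuclear counts. Over 15 settings, 835 estimates for 57 named genes gave 759 with unchanged direction and side of the threshold, 28 that lost a call, 26 that gained one and 22 that changed sign, each at a gene not called. These were ACTB, at -0.0192 with upper-quartile scaling, -0.0218 with scaling by library size alone, -0.000800 with no filter and -0.0176 to 0.0175 with 1 library left out, and, over the same omissions, MT-ATP8 (-0.0277 to 0.132), MT-TV (-0.0482 to 0.0101), MT-TW (-0.0785 to 0.0821), MT-TG (-0.0814 to 0.0134), MT-TR (-0.219 to 0.00580), TFB2M (-0.0802 to 0.0348), TEFM (-0.0503 to 0.0211) and RN7SL1 (-0.0154 to 0.0763). Same-numbered libraries showed no large shared deviation from their group means, with correlations of -0.042, 0.007 and -0.004. This does not settle whether equal numbers mark a shared culture or day. With a replicate block 8408 genes were called, against 8569, and 27 mitochondrial rows were lower. MT-ND6 (-0.0859) and RN7SK (0.121) gained a call there. Depth limits the rarest rows: at 102 to 197 counts MT-TF had an interval of -0.941 to -0.373 on the log2 scale.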
